A study of Saccharomyces cerevisiae with 10 samples.

Results

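Deletion strains of 10 budding yeast genes that set the form of the mitochondrial network were followed in a pool exposed to hydrogen peroxide. The strains were chosen by the annotated gene symbol: MGM1, FZO1 and UGO1 for fusion, DNM1 and FIS1 for fission, MDM10, MMM1 and MDM34 for the tether to the endoplasmic reticulum, and MDM31 and MDM32 for inner membrane shape. All 10 were measured, among 4611 deletion strains in all. Mitochondria in yeast form a branched tubular network that is kept in balance by fusion and fission of its membranes. Fusion needs the dynamin-related GTPases Fzo1 of the outer membrane and Mgm1 of the inner membrane, which are joined by Ugo1. Fission needs the dynamin-related GTPase Dnm1, which assembles on mitochondria through the tail-anchored protein Fis1. Mdm10, Mmm1 and Mdm34 belong to ERMES, the complex that tethers mitochondria to the endoplasmic reticulum and takes part in lipid exchange, and Mdm31 and Mdm32 are inner membrane proteins that keep the tubular shape. Yeast cells that cannot fuse mitochondria are known to lose mitochondrial DNA, and many ERMES, mdm31Δ and mdm32Δ cells hold it unstably.

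In the first experiment, 6 barcode arrays set the adapted portion of a pool of haploid single-gene deletion strains against the acute portion of the same culture. Mild pretreatment with 0.1 mM H2O2 for 45 min was given to the adapted portion, and a sham pretreatment to the acute one. Both then received 0.4 mM H2O2 for 1 h and grew for 5 h in rich medium. In the second experiment, 4 arrays set an acute portion (0.4 mM H2O2 for 1 h, with no mild pretreatment) against an untreated portion of the same culture. Each array came from a separate aliquot of the pool. All strains carry a gene deletion marked by a pair of tags, and the pool holds no strain without one. A strain with a log ratio below 0 made up less of the adapted than of the acute portion, or less of the acute than of the untreated portion. On all 10 arrays Cy5 labelled the adapted or, against untreated, the acute portion, and Cy3 the other, so a dye effect and the treatment cannot be told apart. The arrays read DNA tags and did not measure the deleted genes themselves.

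Each spot was deposited as a log ratio. The sources used here give no log base, and the values are taken as natural logs. With another base all sizes would be rescaled and no test would change. A strain's value on an array is the mean of its tags, quantile normalized within the comparison. Arrays of one comparison were only loosely alike: the correlation of strain values between 2 arrays ran from −0.11 to 0.51 over the 6 pairs of acute arrays and from −0.28 to 0.60 over the 15 pairs of adapted arrays. Over all tags, adapted replicates 2 and 4 had an r of −0.35, and over the first tags alone −0.66, although the labels give them the same dyes. Acute replicates 1 and 4 had an r of −0.44 over the first tags alone. Were the dyes of the adapted arrays the other way round, every adapted over acute value given here would change its sign and keep its p. The 2 tags of a strain had correlations of 0.057 to 0.22 on single arrays. The median strain had an SD of 0.225 between acute and 0.229 between adapted arrays. The depth of signal behind a ratio is unknown, and the number of arrays limits the precision.

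After the high dose, all 10 strains had a mean below 0 for acute over untreated, against 54.8% of all strains with such a mean. The median of the 10 means was −0.22, against −0.01 over all strains. One strain, mgm1Δ, was called at an unadjusted p under 0.005 (limma, two-sided). Of all strains, 2.67% were called below 0 and 0.933% above 0 by the same rule. At an unadjusted p under 0.05, mgm1Δ and mmm1Δ were below 0, as were 6.92% of all strains. No mean of the 10 had an adjusted p under 0.05, which 3 of all strains did (0.0651%). Without normalization between arrays, 30 of all strains below 0 and 1 above had one. Among the 10 strains 5, mgm1Δ, dnm1Δ, fis1Δ, mmm1Δ and mdm32Δ, were below 0 on all 4 arrays, as were 10.8% of all strains.

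**Figure D1:**
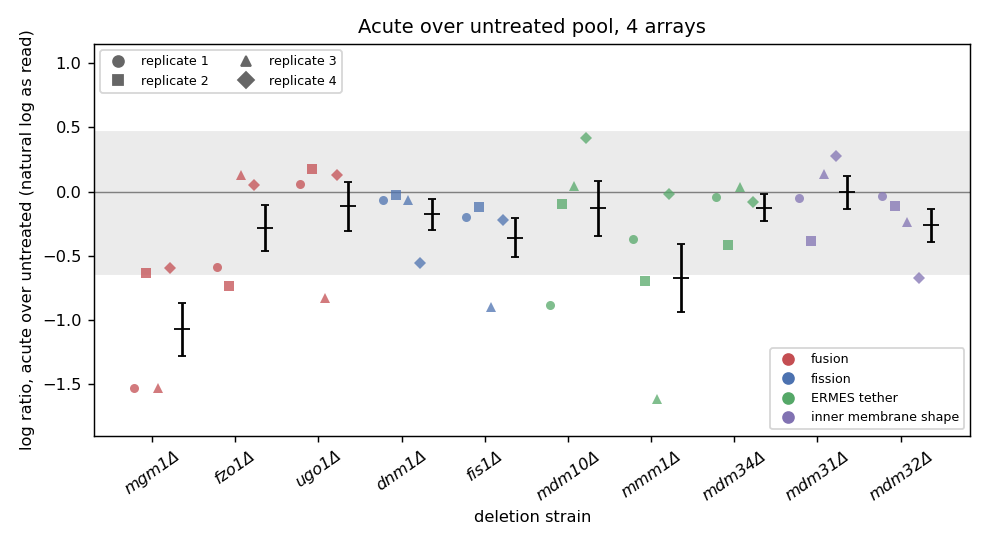
Normalized log ratio of acute over untreated (natural log, y axis) of the 10 deletion strains (x axis, by role), with a point for each of the 4 arrays, a black mark and bar for the mean and its limma standard error, and a grey band for the central 95% of the means of all 4611 strains. Only the means of mgm1Δ (−1.07) and mmm1Δ (−0.67) lie below the band, whose lower edge is at −0.64.

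The fusion strains were led by mgm1Δ, which lacks the inner membrane GTPase. It had log ratios of −1.53, −0.63, −1.53 and −0.60 on acute replicates 1 to 4. All 4 were below 0, and the equal values of replicates 1 and 3 came from the same rank on both arrays under quantile normalization, since before it they were −1.15 and −1.31. The mean was −1.07 with a standard error of 0.21 (limma, unadjusted p = 0.00271, adjusted p = 0.106), and 7 of 4611 strains had a lower one. Its tags agreed in sign on 4 of 4 acute arrays. The first tag ranged from −1.71 to −0.10 and the second from −1.43 to −0.88. The mean was −1.01 without acute replicate 1 and −0.97 without acute replicate 3, and in either case it no longer passed the threshold.

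The other fusion strains did not pass it. In fzo1Δ, which lacks the outer membrane GTPase, the acute log ratios were −0.59, −0.74, 0.13 and 0.05 on replicates 1 to 4. They lay on both sides of 0, with a mean of −0.29 (standard error 0.18, limma, unadjusted p = 0.165). Its tags differed in sign on all 4 acute arrays, and the second tag stood at −1.79 on replicate 2 and between 0.18 and 0.36 on the other arrays. In ugo1Δ, which lacks the link between the GTPases, the values were 0.06, 0.18, −0.82 and 0.13. Only replicate 3 was below 0, and the mean of −0.11 (standard error 0.19, limma, unadjusted p = 0.572) turned to 0.13 without it.

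The fission strains were both below 0 on all 4 acute arrays, though each mean leaned on 1 array: it was −0.046 in dnm1Δ without replicate 4 and −0.19 in fis1Δ without replicate 3. In dnm1Δ, which lacks the fission GTPase, the acute log ratios were −0.07, −0.02, −0.07 and −0.55 on replicates 1 to 4, with a mean of −0.18 (standard error 0.12, limma, unadjusted p = 0.189). The value of replicate 4 came from the first tag, at −1.30, while the second tag stood at −0.20. In fis1Δ, which lacks the receptor of Dnm1, the values were −0.20, −0.12, −0.90 and −0.22. On replicate 3 both tags of fis1Δ were low, the first at −0.79 and the second at −0.69. The mean of fis1Δ was −0.36 (standard error 0.15, limma, unadjusted p = 0.0608).

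Among the ERMES strains, mmm1Δ, which lacks the subunit anchored in the endoplasmic reticulum, had the lowest mean. Its acute log ratios were −0.37, −0.70, −1.61 and −0.02 on replicates 1 to 4. The mean was −0.67 (standard error 0.26, limma, unadjusted p = 0.0465, adjusted p = 0.388), with 96 strains lower, and it became −0.39 without replicate 3. Its unadjusted p was above 0.05 without replicate 1, 2 or 3 and with the second tags alone. The same held with arrays centred and scaled, with array quality weights and with no moderation of the spread. It stayed under 0.05 without replicate 4, with the first tags alone, without normalization and with the shared spread. The tags of mmm1Δ were uneven: on replicate 4 the first was −0.64 and the second 0.56.

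The remaining ERMES strains had smaller means, with 23.3% of all strains lower than mdm10Δ and 24.2% lower than mdm34Δ. In mdm34Δ, which lacks an outer membrane subunit, the acute values were −0.04, −0.41, 0.04 and −0.08, with a mean of −0.12 (standard error 0.10). In mdm10Δ, which lacks a beta-barrel protein that also serves the sorting of outer membrane proteins, they were −0.88, −0.10, 0.05 and 0.42. Its mean was −0.13 (standard error 0.22), and it rests on the first tag alone, the only one measured for this strain.

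The inner membrane strains also missed the threshold. In mdm32Δ the acute log ratios were −0.03, −0.11, −0.24 and −0.67, with a mean of −0.26 (standard error 0.13, limma, unadjusted p = 0.0906). The first tag of mdm32Δ stood at −2.14 on replicate 4 and the second at 0.31, and with the second tag alone the mean was 0.15. In mdm31Δ the values were −0.05, −0.38, 0.14 and 0.28, and the mean of −0.0045 (standard error 0.13) was the highest of the 10. Mdm31 and Mdm32 act in the same part of the inner membrane, and their strains differed in sign on replicates 3 and 4.

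**Figure D2:**
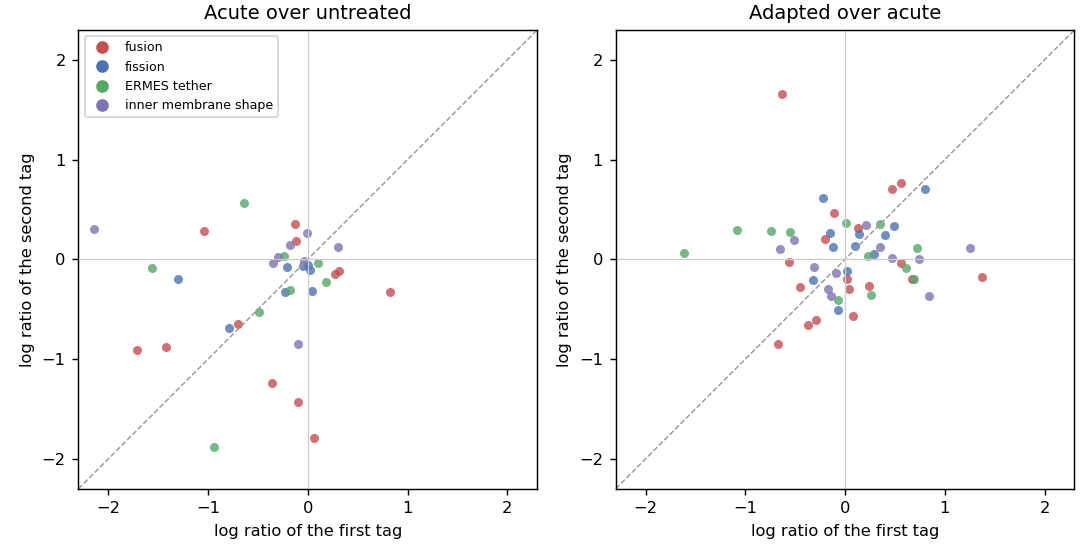
Log ratios of the first and the second tag (natural log, signs set, before quantile normalization) of the 9 strains with both tags measured, with a point for each acute and each adapted array. Points near the diagonal have tags that agree; both tags of mgm1Δ lie below 0 on all 4 acute arrays, while mdm32Δ has a first tag of −2.14 beside a second of 0.31 on acute replicate 4.

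Tags agreed in sign in 18 of 36 pairs of the 9 strains with both tags on the acute arrays (50%), against 55.4% over all strains with both tags. On the adapted arrays they agreed in 30 of 54 pairs (55.6%), against 53.9% over all such strains. By strain, the acute agreement ran from 0 of 4 in fzo1Δ to 4 of 4 in mgm1Δ.

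With pretreatment, no strain of the 10 was called in the direct comparison of adapted over acute, where the same rule called 2.78% of all strains (1.52% below 0 and 1.26% above). One had an unadjusted p under 0.05, fis1Δ, above 0, against 4.47% of all strains above 0 at that p. An adjusted p under 0.05 was reached by 0.0217% of all strains and by none of the 10. The fis1Δ strain had log ratios of 0.24, 0.11, 0.26, 0.34, 0.82 and −0.05 on adapted replicates 1 to 6. Of the 6, 5 were above 0, and both tags were above 0 on the same 5 arrays. The mean was 0.29 (standard error 0.11, limma, unadjusted p = 0.0297, adjusted p = 0.369), and 97.4% of strains had a lower one. Without adapted replicate 5 it was 0.18. The unadjusted p was above 0.05 without adapted replicate 3, 4 or 5, with the second tags alone and with no moderation of the spread.

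**Figure D3:**
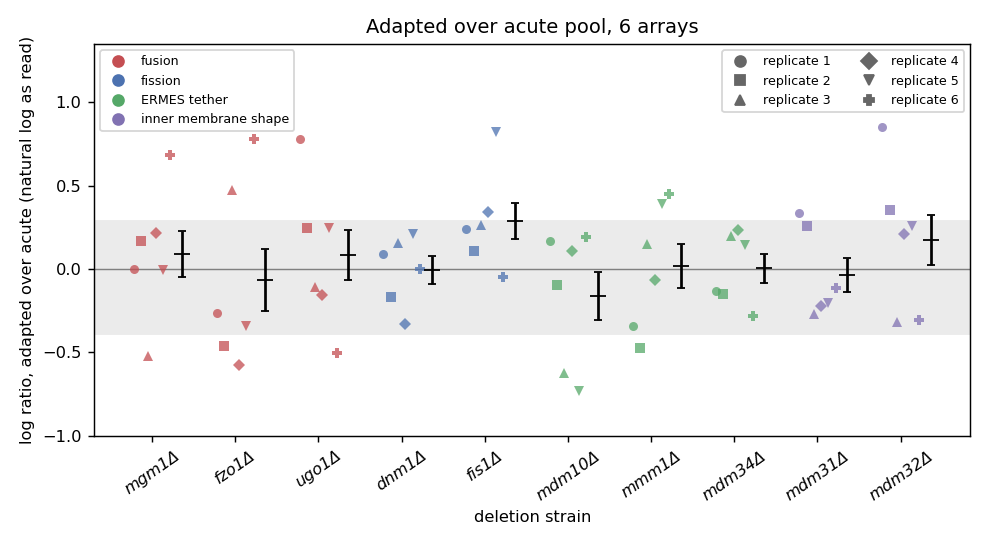
Normalized log ratio of adapted over acute (natural log, y axis) of the 10 deletion strains (x axis, by role), with a point for each of the 6 arrays, a black mark and bar for the mean and its limma standard error, and a grey band for the central 95% of the means of all 4611 strains. Every mean but that of fis1Δ (0.29) lies between −0.16 and 0.18, inside the band from −0.39 to 0.29, and fis1Δ lies at its upper edge.

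The strain that fell most in the acute response did not stand apart here. The mgm1Δ strain had adapted over acute log ratios of −0.0011, 0.17, −0.52, 0.22, −0.01 and 0.68 on replicates 1 to 6, with 3 on each side of 0 and a mean of 0.09 (standard error 0.14). Its tags agreed in sign on 1 of 6 adapted arrays. In mmm1Δ the values were −0.34, −0.47, 0.15, −0.06, 0.39 and 0.45, with a mean of 0.02 (standard error 0.13).

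The other strains scattered about 0 as well. In fzo1Δ the adapted over acute values ran from −0.58 to 0.78 with a mean of −0.06 (standard error 0.19), and in ugo1Δ from −0.50 to 0.78 with a mean of 0.08 (standard error 0.15). The dnm1Δ strain ran from −0.33 to 0.21 with a mean of −0.01 (standard error 0.09). In mdm10Δ the range was −0.73 to 0.19 and the mean −0.16 (standard error 0.14), and in mdm34Δ it was −0.28 to 0.24 with a mean of 0.0040 (standard error 0.09). The mdm31Δ strain had a mean of −0.04 (standard error 0.10) and mdm32Δ of 0.18 (standard error 0.15). Each of these strains had arrays on both sides of 0.

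The adaptive contrast sets the 2 experiments against each other: from the mean of acute over adapted it subtracts the mean of acute over untreated, using all 10 arrays. It is above 0 where a strain gained less from pretreatment than it lost after the high dose. The contrast holds the acute arrays a second time, so its values are given beside the acute ones and are no separate support. One of the 10 strains was called, mgm1Δ, above 0, where the rule called 1.54% of all strains above 0 and 0.173% below. At an unadjusted p under 0.05, mgm1Δ and mmm1Δ were above 0, as were 4.01% of all strains. Its contrast was 0.98 (standard error 0.26, limma, unadjusted p = 0.00291, adjusted p = 0.223), beside an acute mean of −1.07. The call was lost without acute replicate 1 or 3 (0.92 and 0.88) or adapted replicate 1, 3 or 5 (0.95, 0.86 and 0.97), under a replicate block (1.11), with array quality weights (0.80), with no moderation of the spread and with the first tags alone (0.89). The contrast of mmm1Δ was 0.66 (standard error 0.29, limma, unadjusted p = 0.0477, adjusted p = 0.885), beside −0.67. Its unadjusted p was above 0.05 without acute replicate 2 or 3 or adapted replicate 1, 2, 3 or 4. The same held with the second tags alone, array quality weights, arrays centred and scaled or no moderation. It stayed under 0.05 without acute replicate 1 or 4 or adapted replicate 5 or 6, with the first tags alone and under the replicate block. The other 8 contrasts lay between 0.03 in ugo1Δ and 0.35 in fzo1Δ. With the sign of the adapted arrays turned, an alternative chosen after seeing the data, that of mgm1Δ was 1.16 and that of fis1Δ 0.65, against 0.07 as labelled.

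**Figure D4:**
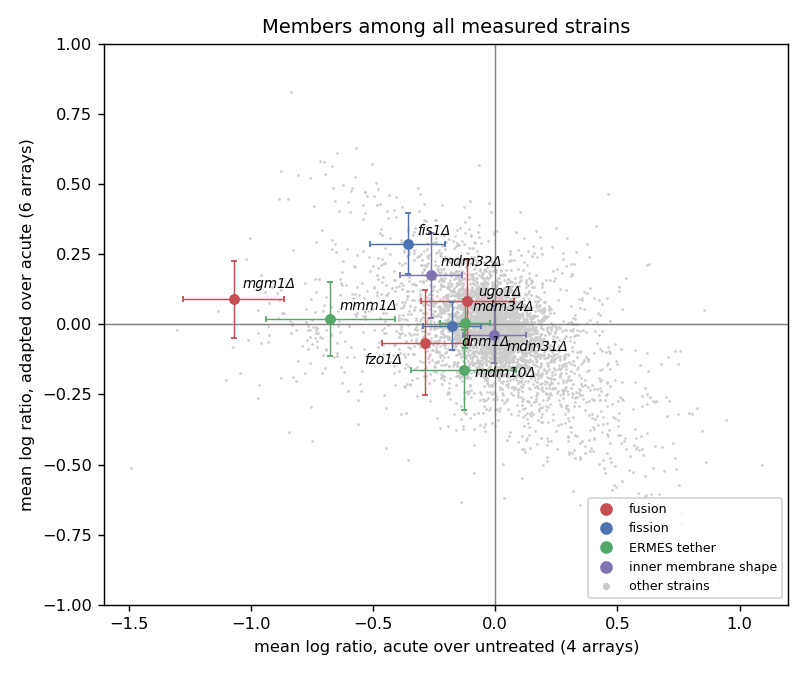
Mean log ratio of adapted over acute (y axis) against mean log ratio of acute over untreated (x axis), both natural log, with a point for each deletion strain; the 10 named strains are coloured by role and all others are grey, and 2 other strains lie outside the axes. All 10 lie left of 0 on the x axis, mgm1Δ farthest at −1.07, while on the y axis fis1Δ is highest at 0.29 and mdm10Δ lowest at −0.16.

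Grouped by role, the strains' mean acute log ratio was −0.49 ± 0.28 for fusion (3 strains), −0.31 ± 0.28 for ERMES (3 strains) and −0.27 ± 0.20 for fission (2 strains) (SD over 4 arrays). The fusion mean was −0.68, −0.40, −0.74 and −0.14 on replicates 1 to 4, and the fission mean was −0.13, −0.07, −0.48 and −0.39. Fusion minus fission was −0.22 ± 0.34, below 0 on replicates 1 to 3 and 0.25 on replicate 4. Fusion minus ERMES was −0.18 ± 0.12, below 0 on 3 of 4 arrays, and ERMES minus fission was −0.04 ± 0.38. The first and the third of these differences were smaller than their own SD between arrays. The fusion mean also rests on mgm1Δ, since fzo1Δ and ugo1Δ had means of −0.29 and −0.11, beside −0.36 in fis1Δ and −0.18 in dnm1Δ. Groups of 2 or 3 strains chosen by name were compared as a description, with no test.

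For adapted over acute, the group means were 0.04 ± 0.18 for fusion, −0.05 ± 0.13 for ERMES and 0.14 ± 0.21 for fission (SD over 6 arrays). Fusion minus fission was −0.10 ± 0.30, with 3 arrays on each side of 0, ERMES minus fission was −0.19 ± 0.27 and fusion minus ERMES 0.08 ± 0.20. All 3 differences were smaller than their SD.

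**Figure D5:**
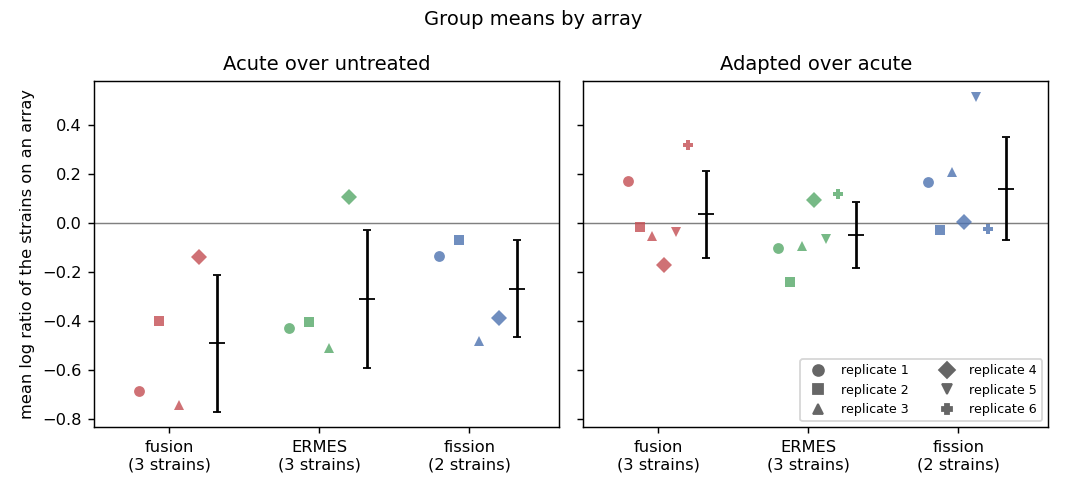
Mean normalized log ratio (natural log, y axis) of the fusion, ERMES and fission strains on each array, for acute over untreated and adapted over acute, with a point for each array and a bar for the mean ± SD over arrays. The groups overlap in both comparisons: the acute means range from −0.74 to −0.14 in fusion, −0.51 to 0.11 in ERMES and −0.48 to −0.07 in fission.

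From low to high, the acute means ran mgm1Δ, mmm1Δ, fis1Δ, fzo1Δ, mdm32Δ, dnm1Δ, mdm10Δ, mdm34Δ, ugo1Δ and mdm31Δ. Each of the 9 differences between neighbours in that order was smaller than its own SD over arrays (exact sign-flip permutation test, two-sided, unadjusted p from 0.25 to 1), and 4 arrays cannot give a p under 0.125, so no pair could have been called. The mgm1Δ strain was below mmm1Δ by a mean of 0.40 but on only 2 of 4 arrays. The order for adapted over acute ran from mdm10Δ through fzo1Δ, mdm31Δ, dnm1Δ, mdm34Δ, mmm1Δ, ugo1Δ, mgm1Δ and mdm32Δ to fis1Δ. Its 9 differences between neighbours were also smaller than their SD (same exact test, unadjusted p from 0.594 to 1). The smallest unadjusted p that 6 arrays allow is 0.0312, which a single pair could not have kept below the threshold after adjustment over 9 pairs.

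Strains lacking partners of these proteins were measured beside them. All 3 fusion regulators were below 0 after the high dose, as were 54.8% of all strains, and 1 was called, against 2.67% of all strains below 0. The ups1Δ strain, which lacks an intermembrane space lipid transfer protein that affects Mgm1 processing, had acute log ratios of −0.67, −0.42, −0.68 and −0.38 and a mean of −0.54 (standard error 0.09, limma, unadjusted p = 0.0017, adjusted p = 0.0995). The pcp1Δ strain lacks the rhomboid protease that cleaves Mgm1. Its acute values were −0.97, −0.27, −1.10 and −0.43, with a mean of −0.69 that was not called (limma, adjusted p = 0.17). The contrast of pcp1Δ, 0.78, was called (limma, adjusted p = 0.257), but not without acute replicate 1, 3 or 4 or any of adapted replicates 1 to 5, nor with the sign of the adapted arrays turned (0.60). The mdm30Δ strain, which lacks the F-box protein that turns over Fzo1, had a mean of −0.38.

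Of the other ERMES genes, the strain lacking Gem1, the calcium-binding GTPase that associates with the complex, had acute log ratios of −1.20, −0.67, −1.20 and −0.43. Its mean was −0.88 (standard error 0.16, limma, unadjusted p = 0.00212, adjusted p = 0.0995), lower than that of the 3 ERMES subunits among the 10 strains. Like mdm10Δ, gem1Δ was measured by the first tag alone, and its acute call was lost without acute replicate 1, 2 or 3. The contrast of gem1Δ was 1.07 (limma, adjusted p = 0.034), past the adjusted threshold that 16 of all strains passed (0.347%). The number of all strains past it was 2 with the first tags alone and 5 with no moderation of the spread. It was 1 under the replicate block and 6 to 15 without 1 array. Whether gem1Δ was among the strains past it under these settings is not given here. The mdm12Δ strain, which lacks the remaining ERMES subunit, had an acute mean of −0.06, with values of −0.14, 0.05, 0.50 and −0.64. Acute means of mdv1Δ and caf4Δ, which lack the adaptors between Fis1 and Dnm1, were 0.12 and −0.23, and that of vps1Δ, which lacks another dynamin-related protein, was 0.14. None of these 3 was called. For adapted over acute, caf4Δ had a mean of 0.26 (standard error 0.11, limma, unadjusted p = 0.0381, adjusted p = 0.408), with 96.9% of strains lower. The adapted over acute means of mdv1Δ and vps1Δ were −0.02 and 0.06.

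Over the partner lists together, 37 of 43 genes were measured, and 27 had an acute mean below 0, as did 54.8% of all strains. Below 0, 4 were called, gem1Δ, ups1Δ, gep4Δ (−0.48) and psd1Δ (−0.36), and above 0 none, against 2.67% and 0.933% of all strains. The calls of gep4Δ and psd1Δ were lost without normalization, with arrays centred and scaled, with either tag set alone and with the shared spread. Leaving out 1 array removed the call of psd1Δ in every case, of gep4Δ without replicate 1, 2 or 4 and of ups1Δ without replicate 1, 3 or 4; ups1Δ also lost it with either tag set alone. Gep4 and Psd1 act in the synthesis of cardiolipin and of phosphatidylethanolamine. No strain of the lists for MICOS and cristae (6 of 8 measured), inheritance and cortex anchors (7 of 7), sorting and assembly of the outer membrane (5 of 6), inner membrane and lipid transfer (3 of 4), peroxisome fission (4 of 5) or fission adaptors (2 of 2) was called in any comparison. At an unadjusted p under 0.05 in the acute comparison, 11 of the 37 were below 0 and 1 above, against 6.92% and 5.75% of all strains. For adapted over acute, 7 of the 37 were above 0 at that p and 0 below, against 4.47% of all strains above 0.

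Strains lacking genes for mitochondrial DNA maintenance also stood below 0 after the high dose. Of 10 such genes 9 were measured, all 9 were below 0 in the acute comparison, as were 54.8% of all strains, and 4 were called, against 2.67% of all strains: mtf1Δ (−0.77), mgm101Δ (−0.76), mhr1Δ (−0.73) and rpo41Δ (−0.72). None of these 4 acute means had an adjusted p under 0.05 (limma, adjusted p from 0.0782 to 0.117). The median of the 9 was −0.36, beside −0.22 for the 10 network strains and −0.01 for all strains. In the adaptive contrast rpo41Δ, which lacks the mitochondrial RNA polymerase, was called at 0.76 (limma, adjusted p = 0.0428), as was mhr1Δ at 0.79 (adjusted p = 0.23). The same rule called 1.54% of all strains above 0 in the contrast. An adjusted p under 0.05 was reached there by 16 of all strains, by 2 with the first tags alone and by 1 under the replicate block. Whether rpo41Δ was among them under the other settings is not given here. The state of mitochondrial DNA in the pool's strains was not measured, and its part in the values of mgm1Δ or mmm1Δ was not tested.

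The patterns most like that of mgm1Δ over the 10 arrays, by Pearson's r over all other named strains, were those of aep3Δ (0.99), cbs2Δ (0.96) and cox15Δ (0.96). Their acute means were −0.75 in aep3Δ, −0.48 in cbs2Δ and −0.77 in cox15Δ. For fis1Δ they were suv3Δ (0.93), pcl7Δ (0.91) and rci37Δ (0.91), with acute means of −0.60, −0.31 and −0.19 and adapted over acute means of −0.01, 0.24 and 0.13. These are the highest values found, over 10 arrays of 2 kinds, and are given as a description. Between strains of the set, mgm1Δ had an r of 0.66 with mmm1Δ and 0.64 with fis1Δ over the same arrays, and 0.20 with fzo1Δ.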

How the data were processed

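Genomic DNA tags of the haploid deletion pool were measured on 10 two-colour barcode arrays (4 acute over untreated, 6 adapted over acute). The deposited values are natural log ratios per spot as read here, which the authors made from scanned intensities with median and loess correction. Of 22575 spots, 16850 hold a value on all arrays. The deposited sign differs between 2 runs of spots, as replicate spots show: in the first run of the first tag set 3510 had the opposite sign to their main spot and 0 the same, and after it 350 had the same and 0 the opposite. Signs were set to one direction on all arrays. That choice follows the order of the study's own strain p-values set against the acute means, so that order is no separate check of it. No adapted array entered that step, and the direction of adapted over acute rests on the dye labels. The sources used here do not say which tag set holds the upstream tags.

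Tags were averaged per strain (4611 strains, 4147 named, 4478 with both tags), arrays quantile normalized within a comparison, and all strains fitted two-sided by lmFit and eBayes of limma 3.58.1 (R 4.3.3). The adaptive contrast used all 10 arrays. A call is an unadjusted p under 0.005, with Benjamini-Hochberg adjusted values beside it. The fits were run on simulated strains with planted effects and independent noise between arrays. The real arrays are correlated, so that run is no check of error rates on these data. The gene for each spot came from the platform annotation, and 18786 of 18794 named spots matched a RefSeq gene. The 10 strains, the partner lists and the tests were chosen with earlier results of these data known. From each partner list, up to 3 strains with the lowest p among those called were named, and others named were chosen after their values were seen. Plots used matplotlib 3.10.9, exact tests numpy 2.4.6 and tables pandas 2.3.3 under Python 3.11.15. Alternatives were other normalizations, single tag sets, other estimates of the spread, array weights, strains with both tags, a replicate block, adjusted p-values and leaving out each array. Expression arrays and growth measurements of the study were not analysed here, and neither were sequences of the tags.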

Additional observations from a re-analysis of the deposited data

Results flagged for a closer look

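On the acute arrays, 3 strains had 1 array far from the other 3, of 20 groups of arrays examined over both comparisons. For normal values the rule flags about 1 in 20. Its share over all strains was not counted, so 3 of 20 is not read as an excess. The ugo1Δ strain stood at −0.82 on replicate 3 and between 0.06 and 0.18 on the others. The dnm1Δ strain stood at −0.55 on replicate 4 and between −0.07 and −0.02 on the others. The fis1Δ strain stood at −0.90 on replicate 3 and between −0.22 and −0.12 on the others. In ugo1Δ and fis1Δ both tags were below 0 on that array, −0.70 and −0.65 in ugo1Δ and −0.79 and −0.69 in fis1Δ, while in dnm1Δ the first tag stood at −1.30 and the second at −0.20.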

How the results depend on the processing

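The 21 alternatives gave 454 values of the 10 strains, with none from the adjusted p-values. Of the 454, 390 kept their direction and their side of the 0.005 threshold and 49 changed sign. A shared spread and no moderation leave every mean as it was, so there only the side of the threshold could change. The count of called strains was 1 in the acute comparison and in the contrast. In both it was 0 with the first tags alone, with no moderation of the spread and with an adjusted p under 0.05. It was 2 (mgm1Δ and mmm1Δ) with a single spread shared by all strains and p from a normal distribution. That setting is not shown to be the regularized t-test of the paper. In the contrast it was also 0 with array quality weights. Leaving out 1 array gave 0 to 1 in both: 0 in the acute comparison without acute replicate 1 or 3, and 0 in the contrast without acute replicate 1 or 3 or adapted replicate 1, 3 or 5. In the direct comparison it stayed 0. The role differences moved by less than their SD, but acute ERMES minus fission turned to 0.048 and 0.040 without acute replicate 1 or 2, and adapted over acute fusion minus ERMES to −0.087 with the second tags. Over all strains, the acute count of 166 was 70 with no moderation, 76 with the first tags, 264 with the shared spread, 3 by adjusted p (10 with arrays centred and scaled) and 79 to 125 without 1 array. The direct count of 128 was 65 with the first tags, 195 with the shared spread, 1 by adjusted p and 77 to 109 without 1 array. The contrast count of 79 was 49 with no moderation, 44 with the first tags, 128 with the shared spread, 16 by adjusted p and 52 to 82 without 1 array, and it was 356 with the sign of the adapted arrays turned.

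Replicate numbers 1 to 4 are shared by both experiments. With the adapted arrays read as acute over adapted, the deviations of same-numbered arrays from strain means had r of 0.34, −0.26, 0.17 and 0.24. Read as adapted over acute, each r takes the other sign. On the acute over adapted scale, only acute replicate 3 was most like its own number. With the replicate number as a block the contrast called 0 of the 10 strains, and 65 strains above and 6 below 0 in all, against 71 and 8 without it. The contrasts of ugo1Δ, mdm31Δ and mdm32Δ changed sign under the block, to −0.074, −0.021 and −0.012.

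The cause of the other changes of sign was not tested. With the second tags alone, adapted over acute was −0.13 in mgm1Δ, 0.0081 in fzo1Δ, 0.11 in dnm1Δ, −0.029 in mdm34Δ, 0.016 in mdm31Δ and −0.074 in mdm32Δ, whose acute mean was 0.15 and contrast −0.073. With the first tags alone, ugo1Δ was 0.078 in the acute comparison and −0.25 in the contrast, mmm1Δ was −0.015 for adapted over acute and mdm31Δ 0.055 in the acute comparison. With arrays centred and scaled, adapted over acute was 0.00471 in dnm1Δ and −0.00471 in mmm1Δ, the contrast of ugo1Δ was −0.0085 and the acute mean of mdm31Δ 0.00343. Without normalization, mmm1Δ was −0.043 for adapted over acute and ugo1Δ −0.017 in the contrast. Array quality weights gave −0.085 in ugo1Δ for the contrast and −0.00357 in mdm34Δ for adapted over acute. With the sign of the adapted arrays turned, chosen after seeing the data, the contrast was −0.034 in mdm10Δ and −0.032 in mdm31Δ.

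Leaving out 1 array, acute means ranged from −0.21 to 0.13 in ugo1Δ, −0.27 to 0.12 in mdm10Δ and −0.078 to 0.10 in mdm31Δ. Adapted over acute ranged from −0.035 to 0.21 in mgm1Δ, −0.25 to 0.044 in fzo1Δ, −0.046 to 0.20 in ugo1Δ, −0.054 to 0.055 in dnm1Δ, −0.074 to 0.13 in mmm1Δ, −0.047 to 0.060 in mdm34Δ and −0.11 to 0.0019 in mdm31Δ. The contrast ranged from −0.21 to 0.16 in ugo1Δ, −0.098 to 0.18 in fis1Δ, −0.065 to 0.11 in mdm31Δ and −0.060 to 0.21 in mdm32Δ. Depth is unknown, and with 4 or 6 arrays that agree loosely, small differences between strains were not detectable.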
